A study of Homo sapiens with 12 samples.

Results

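The genes described here form the oxygen-sensing pathway around the hypoxia-inducible factors (HIF), chosen by symbol among the 60660 genes of the deposited tables, in which 10 of 10 were found. They are the HIF alpha subunits HIF1A, EPAS1 and HIF3A, the partner subunits ARNT and ARNT2, the prolyl hydroxylases EGLN1, EGLN2 and EGLN3, the asparaginyl hydroxylase HIF1AN and the ubiquitin ligase subunit VHL. They were followed in 12 mRNA libraries of LNCaP cells and 22Rv1 cells, 3 in each of 4 groups. In each prostate cancer (PCa) line, the groups were cells transfected with NC-mimic, the negative control, and cells transfected with piR-4447944 mimic, a synthetic copy of a PIWI-interacting RNA. All 4 groups were deprived of androgen by culture in CS-FBS, serum stripped with charcoal, at 10%, so no group received full serum. LNCaP responds to androgen and was derived from a metastasis in a lymph node, and 22Rv1 was derived from a xenograft that relapsed after castration. Each is 1 established line, and nothing in the labels says that replicates were separate cultures. The study speaks of independent experiments for the figure that includes these data, without tying a library to one, so p-values measure the spread between these libraries, which may be technical.

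HIF is a transcription factor made of an alpha subunit and a partner subunit. When oxygen is present, the EGLN enzymes hydroxylate prolines of the alpha subunit, VHL binds the hydroxylated protein and it is destroyed by the proteasome, while HIF1AN hydroxylates an asparagine and so blocks the binding of coactivators. These steps act on the protein, so the mRNA levels measured here do not show how active the pathway was. EGLN1 and EGLN3 are themselves known target genes of HIF, which makes them part of a feedback loop.

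The libraries held between 12161091 and 22179601 expected counts, which are the numbers of reads that the program RSEM assigned to genes. In the fits of the mimic, edgeR's common estimate of the replicate spread (the biological coefficient of variation) was 0.343 for 22Rv1 and 0.0964 for LNCaP. The library of 22Rv1 with mimic, replicate 3, stood apart before any test. In it, 21.1% of 18720 genes lay more than 1 on the log2 scale from the NC-mimic mean of the line, against 1.11% to 10.4% in the other 11 libraries, and mitochondrially encoded genes took 2.23% of the counts against 4.24% to 5.37%. The 22Rv1 library with NC-mimic, replicate 3, shared part of these deviations. For many of the main calls, signs and counts that changed without either library, both values are given. The closing sections give ranges with single libraries left out. The markers of prostate epithelium KLK3, HOXB13, KRT8 and KRT18 had counts in every library. KLK3, which encodes prostate-specific antigen, was at 1828 to 2268 TPM in LNCaP and 24.8 to 53.4 TPM in 22Rv1. The endothelial marker CDH5 and the blood marker HBB were at 0 in all 12 libraries, but the fibroblast marker COL1A1 reached 42.9 TPM in LNCaP and 21.7 TPM in 22Rv1, and the part of such transcripts in the results was not tested.

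Because the pathway feeds back on its own genes, the core letters of the HIF binding site were searched in the RefSeq promoters (GRCh38.p14, 250 bases before to 50 after a start site), which were given for 8 of the 10 genes and not for ARNT2 and VHL. The letters ACGTG, on either strand, stood in the promoter of EGLN1 and in some but not all promoter entries of EGLN2. They stood in 21.4% of all 35116 promoter entries. The letters GCGTG stood in the promoter of EPAS1 and in some but not all promoter entries of HIF1A and HIF3A. They stood in 36.5% of all entries. A gene can have several entries, so the number of genes is not on the same footing as these shares. No promoter entry of ARNT, EGLN3 or HIF1AN held either, which says only that these letters were not in this window. The stretches below are shown to give these letters in their context for 4 genes, 25 bases each, 5′ to 3′ on the strand of the gene, and the searched letters in capitals. The lines give EGLN1 at chr1:231422286-231422310 (minus strand), EGLN2 at chr19:40799133-40799157 (plus strand, where the letters overlap their own reverse complement), EPAS1 at chr2:46297280-46297304 (plus strand) and HIF1A at chr14:61695299-61695323 (plus strand).
EGLN1: gccgtggtgtACGTGcagagcgcgc
EGLN2: gggcgcggtcACGTGcccaccgggc
EPAS1: gcctgccggcGCGTGcccgcccaca
HIF1A: gctgagagcgGCGTGggctggggtg

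A piRNA can pair with the 3′UTR of a transcript, so the letters ATAGCTT, the complement of positions 2 to 8 of piR-4447944, were searched on the sense strand of the annotated 3′UTRs (hg38, GENCODE v44). They stood in the 3′UTR of EPAS1 and of VHL, 1 time each, and in none of the other 8 genes. Of 19608 protein-coding genes, 11.9% held them. Among genes with a longest 3′UTR within 1.25 times that of the gene, the share was 14.4% for EPAS1 (2037 bases) and 24.0% for VHL (3702 bases). Both sites are shown in 29 bases of the plus strand, EPAS1 at chr2:46386318-46386346 and VHL at chr3:10151396-10151424, with the matched letters in capitals.
EPAS1: aaaaacaaaaaATAGCTTtcaaaagaaat
VHL: ctccttccctaATAGCTTtttaaaaaaat

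Levels were compared between genes in TPM, which is relative to all transcripts of a library and scaled for transcript length. In LNCaP with NC-mimic the order was VHL at 65.0 ± 1.10 TPM (SD, n = 3), HIF1A at 55.9 ± 7.53, ARNT at 35.9 ± 1.14, EGLN2 at 29.2 ± 3.05, EGLN3 at 24.5 ± 7.84, EGLN1 at 15.9 ± 1.40, HIF1AN at 11.9 ± 2.21, ARNT2 at 8.83 ± 0.663 and EPAS1 at 3.38 ± 0.935 TPM, with HIF3A last at 0.00333 TPM. Of the neighbours in that order, the libraries of EGLN2 and EGLN3 overlapped and those of the others did not. In 22Rv1 with NC-mimic the order was VHL at 49.3 ± 7.81 TPM (SD, n = 3), HIF1A at 49.2 ± 13.9, EGLN2 at 36.3 ± 8.04, EGLN1 at 34.1 ± 3.87, ARNT at 26.7 ± 1.96, HIF1AN at 21.2 ± 5.78, ARNT2 at 3.87 ± 1.31, EGLN3 at 2.44 ± 0.441, EPAS1 at 2.44 ± 2.24 and HIF3A at 0.667 ± 0.616 TPM. Here the neighbours from VHL to EGLN1 overlapped, as did ARNT with HIF1AN and the last 3 genes in turn. Between the lines, EGLN3 went from the fifth place in LNCaP to the eighth in 22Rv1, EGLN1 from the sixth to the fourth and ARNT from the third to the fifth. VHL lay above 84.4% and HIF1A above 81.6% of the 15595 genes that reached a mean of 1 TPM in LNCaP with NC-mimic, while EPAS1 lay above 20.3% of them. In 22Rv1 with NC-mimic, EGLN3 lay above 16.2% of 16314 such genes.

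**Figure D1:**
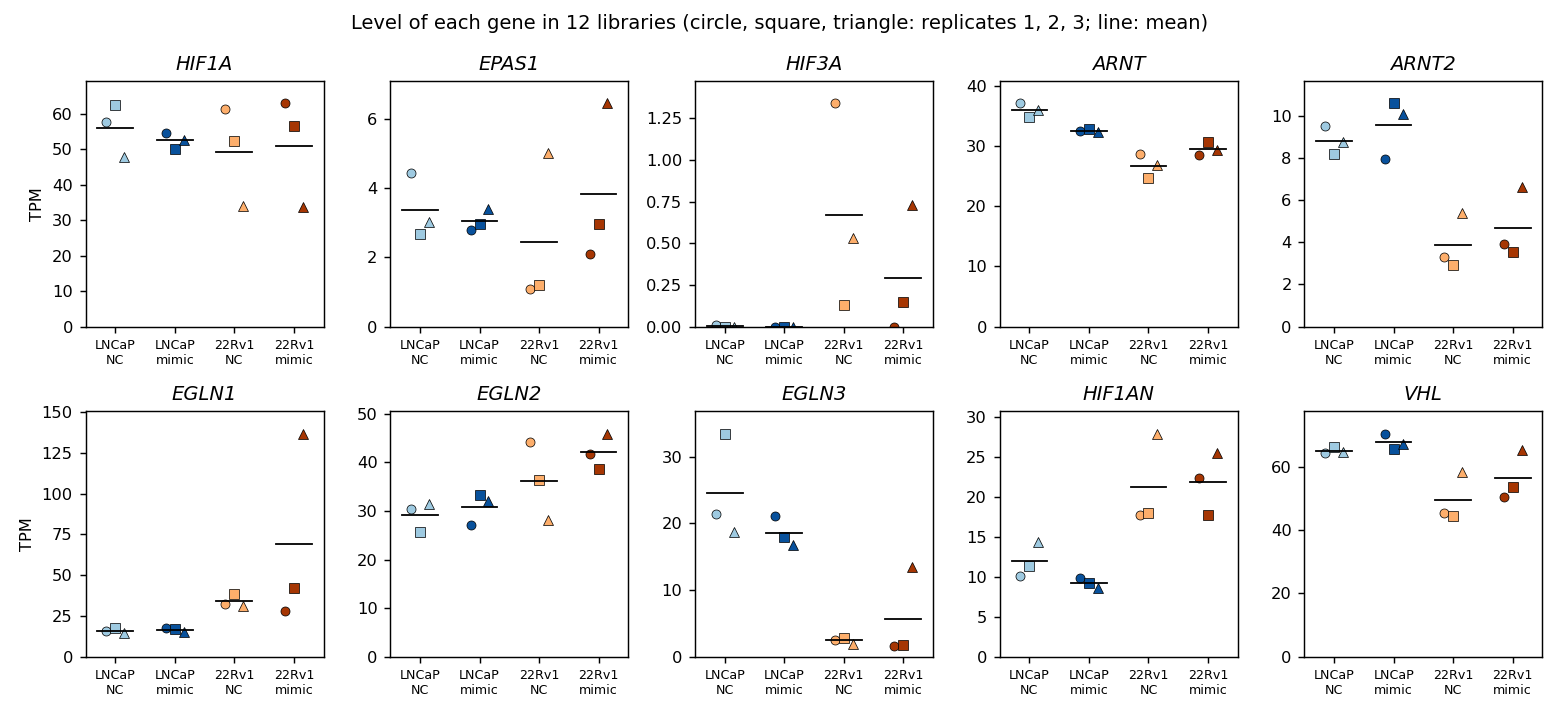
TPM of each of the 10 genes (vertical axes, linear from 0 with a scale of their own) in the 12 libraries, by line and transfection. Circles, squares and triangles are replicates 1, 2 and 3, and lines are means of 3 libraries. EGLN3 was high in the LNCaP groups (16.7 to 33.4 TPM) and under 3 TPM in 22Rv1 except in mimic replicate 3 (13.5 TPM), which is also the highest point for EGLN1 (136.8 TPM).

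The first comparison set 22Rv1 against LNCaP within the NC-mimic libraries and asked how the set of HIF genes differs between the lines without the mimic. It used edgeR's quasi-likelihood test on the expected counts, with p-values adjusted over all genes tested, and levels are given as CPM, the counts of a gene relative to the size of its library after TMM scaling. Of the 9 genes with enough counts to be tested, 2 were higher and 4 lower in 22Rv1 at an adjusted p under 0.05. Among all 17497 genes tested, 58.4% were called, 30.9% higher and 27.5% lower in 22Rv1. The share of pathway genes called in both directions together was thus near that of all genes. Without 22Rv1 NC-mimic replicate 3, 3 of the 9 were higher and 5 lower, where 66.2% of all genes were called.

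Of the alpha subunits, HIF1A (chr14:61695513-61748259, plus strand), the subunit found in nearly all cells, was at 152.9, 165.8 and 134.8 CPM in LNCaP and at 172.0, 151.3 and 99.6 CPM in 22Rv1. The groups overlapped, replicate 3 of 22Rv1 being the lowest of the 6 libraries. The log2 fold change (22Rv1 minus LNCaP) was -0.11 ± 0.19 (SE; adjusted p = 0.646, edgeR), and without that library it was 0.09 ± 0.10 (adjusted p = 0.486).

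EPAS1 (chr2:46293667-46386697, plus strand), which encodes HIF-2 alpha, was at 8.86, 5.74 and 8.95 CPM in LNCaP and at 2.69, 4.07 and 10.0 CPM in 22Rv1. In this gene replicate 3 of 22Rv1 was the highest of the 6 libraries, whereas the other 2 libraries of 22Rv1 lay below all LNCaP libraries. The log2 fold change was -0.51 ± 0.47 (adjusted p = 0.379, edgeR), and -1.24 ± 0.30 without 22Rv1 NC-mimic replicate 3 (adjusted p = 0.00309), so this 1 library decided the call.

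HIF3A (chr19:46297042-46343433, plus strand), whose products include inhibitory forms of the alpha subunit, was nearly silent in LNCaP. It had 1 count over the 3 LNCaP libraries with NC-mimic and 34 counts over the 3 of 22Rv1, of which 18, 6 and 10 fell in the single libraries. The ratio of these counts, scaled for depth, was 37.8, with a 95% interval of 6.34 to 1537 that covers counting error only. With the mimic it had 0 counts in LNCaP and 30 in 22Rv1, which is at least 10.2-fold higher when the LNCaP group is set to a floor of 3 counts. The exact 95% interval of the same comparison, without a floor, starts at 7.79, and the ratio with NC-mimic was taken against 1 count, so the values with and without the mimic are not on the same footing. The 30 counts were 0, 9 and 21 in replicates 1, 2 and 3, so 1 library of 22Rv1 had none either. HIF3A did not pass the low-count filter of either line comparison.

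Both partner subunits were lower in 22Rv1. ARNT (chr1:150809713-150876708, minus strand), the common partner of the alpha subunits, was at 97.4, 91.8 and 97.0 CPM in LNCaP and at 81.1, 71.4 and 73.0 CPM in 22Rv1 with NC-mimic. The groups did not overlap, and the log2 fold change was -0.35 ± 0.09 (adjusted p = 0.0110, edgeR). Without LNCaP NC-mimic replicate 1 the adjusted p was 0.0521 at a log2 fold change of -0.35.

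ARNT2 (chr15:80404350-80597933, plus strand), a relative of ARNT best known from neurons, was at 40.7, 37.9 and 39.0 CPM in LNCaP and at 15.2, 13.9 and 27.3 CPM in 22Rv1. The groups did not overlap, although replicate 3 of 22Rv1 was the highest of its group. The log2 fold change was -1.08 ± 0.24 (adjusted p = 0.00557, edgeR). Within a library, ARNT made up 75.6% to 80.9% of the summed TPM of ARNT and ARNT2 in the 6 LNCaP libraries and 81.6% to 89.7% in the 6 of 22Rv1. That is a difference of 8.09 percentage points (exact two-sided permutation test, p = 0.00216, the smallest that 6 against 6 libraries can give, and 0.00361 adjusted over the 5 shares tested). The 2 lowest of the 22Rv1 shares, 81.6% and 83.3%, were those of the replicate 3 libraries. The test took the 6 libraries of a line as separate units, NC-mimic and mimic together, so it does not allow for such a shared deviation. Within the NC-mimic libraries alone and within the mimic libraries alone, the exact permutation p was 0.1, the smallest that 3 against 3 can give.

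Of the 3 prolyl hydroxylases, 2 differed, in opposite directions. EGLN3 (chr14:33924227-34462774, minus strand), an enzyme that is strongly induced by HIF in many cells, was at 33.6, 38.4 and 30.6 CPM in LNCaP and at 3.74, 5.11 and 2.85 CPM in 22Rv1 with NC-mimic. Every LNCaP library was far above every 22Rv1 library. The log2 fold change was -3.13 ± 0.23 (adjusted p = 1.59e-05, edgeR), the largest of the 9 genes in size.

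EGLN1 (chr1:231363751-231422287, minus strand), regarded as the main oxygen sensor of normal cells, went the other way. It was at 46.3, 48.3 and 43.4 CPM in LNCaP and at 94.2, 107.3 and 95.3 CPM in 22Rv1, with no overlap. The log2 fold change was 1.09 ± 0.10 (adjusted p = 5.24e-05, edgeR).

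EGLN2 (chr19:40798996-40808434, plus strand), a relative that is not known for induction by low oxygen, was at 41.7, 34.2 and 47.2 CPM in LNCaP and at 51.4, 53.4 and 45.1 CPM in 22Rv1. The groups overlapped by the third library of each, with a log2 fold change of 0.28 ± 0.14 (adjusted p = 0.128, edgeR). Without 22Rv1 NC-mimic replicate 3 it was 0.34 ± 0.13 and passed the threshold (adjusted p = 0.0375).

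Within each library, the 3 EGLN genes made up different mixtures in the lines. EGLN3 made up 26.3% to 43.6% of their summed TPM in the 6 LNCaP libraries and 2.15% to 6.86% in the 6 of 22Rv1. The difference of -27.9 percentage points (22Rv1 minus LNCaP) had an exact two-sided permutation p of 0.00216 (0.00361 adjusted over 5 shares). EGLN1 made up 22.7% to 27.0% in LNCaP and 39.3% to 69.7% in 22Rv1, a difference of 26.3 percentage points with the same exact p of 0.00216. The share of EGLN2 differed by 1.62 percentage points (exact permutation p = 0.797). Within the NC-mimic libraries alone, and within the mimic libraries alone, the shares of EGLN1 and of EGLN3 did not overlap between the lines, where an exact test of 3 against 3 libraries cannot go below 0.1. The summed TPM itself was 69.7 ± 6.18 in LNCaP and 72.8 ± 9.99 in 22Rv1 with NC-mimic (SD, n = 3), which differed by less than the spread between replicates. With the mimic it was 66.0, 68.1 and 63.8 in LNCaP and 71.3, 82.5 and 196.2 in 22Rv1, where every 22Rv1 library was above every LNCaP library.

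**Figure D2:**
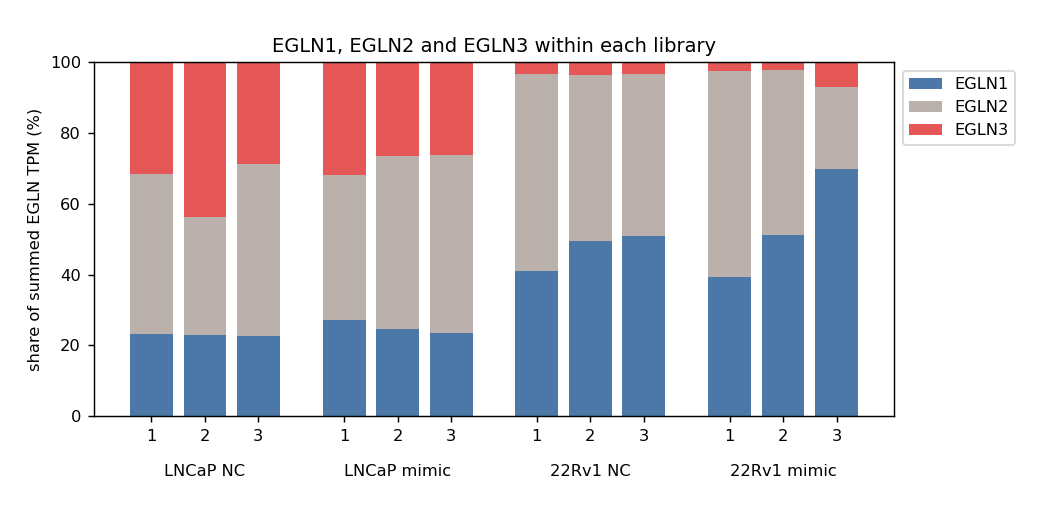
Shares of EGLN1, EGLN2 and EGLN3 in their summed TPM (vertical axis, percent) in each of the 12 libraries, numbered by replicate within the 4 groups. The EGLN3 band is wide in the 6 LNCaP libraries (at least 26.3%) and thin in the 6 of 22Rv1 (at most 6.86%), and the EGLN1 band is widest in 22Rv1 mimic replicate 3 (69.7%).

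HIF1AN (chr10:100529072-100559998, plus strand), the asparaginyl hydroxylase also called FIH, was at 48.1, 49.1 and 53.2 CPM in LNCaP and at 103.7, 97.7 and 97.0 CPM in 22Rv1. There was no overlap, and the log2 fold change was 0.98 ± 0.09 (adjusted p = 5.90e-05, edgeR). VHL (chr3:10141778-10153667, plus strand), the subunit that recognizes hydroxylated HIF, was at 139.6, 140.5 and 143.2 CPM in LNCaP and at 95.3, 97.9 and 113.0 CPM in 22Rv1. The groups did not overlap, and the log2 fold change was -0.48 ± 0.10 (adjusted p = 0.00294, edgeR). The span of HIF1AN overlaps NDUFB8 on the opposite strand (612 to 2601 counts in a library). That of EGLN3 overlaps SPTSSA (688 to 1598 counts) and that of EGLN2 overlaps RAB4B-EGLN2 (0 to 39 counts), both on the same strand. Whether exons overlap was not examined, and no strand setting is given in the sources used here. RSEM's expected counts of EGLN3 and HIF1AN were whole numbers in every library. EGLN2 and EGLN1 had some fractional ones, such as 774.88 for EGLN2 in LNCaP NC-mimic replicate 3 and 710.65 for EGLN1 in LNCaP mimic replicate 1.

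The same comparison among the libraries with piR-4447944 mimic called 3 of the 9 genes higher and 2 lower in 22Rv1, with 52.4% of 17283 genes called (28.2% higher and 24.2% lower). HIF1AN (log2 fold change 1.12 ± 0.13, adjusted p = 0.000469, edgeR), VHL (-0.40 ± 0.10, adjusted p = 0.0134) and ARNT2 (-0.95 ± 0.29, adjusted p = 0.0288) kept the direction they had with NC-mimic. EGLN1 was called at a log2 fold change of 2.08 ± 0.58 (adjusted p = 0.0214) and EGLN2 at 0.47 ± 0.11 (adjusted p = 0.0123). EGLN3 was not called at -1.67 ± 0.83 (adjusted p = 0.130), nor was ARNT at -0.08 ± 0.08 (adjusted p = 0.446). Other settings that kept these libraries changed 2 of these calls. EGLN3 was called by limma on log2(TPM + 1) (-2.04, adjusted p = 0.0367) and by edgeR with all 12 libraries in one fit (-1.68, adjusted p = 0.0419). VHL was not called by limma (-0.27, adjusted p = 0.119).

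These values depended on 22Rv1 mimic replicate 3. Without it, 4 genes were higher and 4 lower, of 69.5% of all genes called. EGLN3 was then at a log2 fold change of -3.48 ± 0.19 (adjusted p = 1.29e-08, edgeR), EGLN1 at 1.06 ± 0.12 (adjusted p = 8.12e-06), EPAS1 at -1.34 ± 0.26 (adjusted p = 0.000640) and HIF1A at 0.23 ± 0.07 (adjusted p = 0.00881). In this state the values of EGLN1 and EGLN3 were close to those of the NC-mimic libraries. The calls of ARNT2 and EGLN1 were thin with all libraries kept. ARNT2 was lost without either of the other mimic libraries of 22Rv1 or any of the 3 of LNCaP (adjusted p 0.0543 to 0.0942). EGLN1 was lost without any of the 3 LNCaP mimic libraries (0.0686 to 0.0776), EGLN2 without LNCaP mimic replicate 1 (0.0626) and VHL without LNCaP mimic replicate 3 (0.0502).

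The second comparison is that of the study, piR-4447944 mimic against NC-mimic in each line. By edgeR with adjusted p-values, 0 of 9 genes in LNCaP and 0 of 10 in 22Rv1 were called, as were 0% of all genes tested in either line. At an unadjusted p under 0.05 there were 433 of 16244 genes in LNCaP and 250 of 16898 in 22Rv1, with 1 pathway gene (ARNT) and 0 among them. With DESeq2 2 and 4 genes of all had an adjusted p under 0.05 and with limma 1 and 2, and none was in the pathway. The study itself called genes by an absolute log2 fold change over 0.2 together with a p under 0.05 that was not adjusted, from DESeq2 with shrunken fold changes. With these thresholds applied to the edgeR fit, which does not shrink them, 0 of the pathway genes were called in either line, where 2.22% of all genes met them in LNCaP and 1.48% in 22Rv1. With DESeq2 and shrinkage, 2 genes of all were higher and 0 lower in LNCaP, 142 were higher and 91 lower in 22Rv1, and again none was in the pathway. The study reports more genes changed in both lines than this run found in LNCaP. Its calls were thus not reproduced here, and the reason was not tested. The rule of the study means the edgeR version hereafter. With a block for the replicate number, 420 genes of all met the rule in 22Rv1 in place of 250, and again 0 of the pathway genes.

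In LNCaP the log2 fold changes of the 9 genes lay between -0.18 and 0.10, with SEs between 0.06 and 0.19. ARNT was the one with the smallest p. It was at 97.4, 91.8 and 97.0 CPM with NC-mimic and at 81.2, 84.4 and 87.8 CPM with the mimic, and the groups did not overlap. Its log2 fold change was -0.18 ± 0.07 (unadjusted p = 0.0224, adjusted p = 0.999, edgeR), so it did not pass the adjusted test, and its size was under the limit of 0.2. It passed the rule of the study without LNCaP NC-mimic replicate 2 or LNCaP mimic replicate 3. Of the transcripts with the 7 letters in the 3′UTR, shown above, EPAS1 was at 8.86, 5.74 and 8.95 CPM with NC-mimic and at 7.03, 6.83 and 8.24 CPM with the mimic, a log2 fold change of -0.09 ± 0.19. VHL was at 139.6, 140.5 and 143.2 CPM with NC-mimic and at 144.0, 143.5 and 147.2 CPM with the mimic, with a log2 fold change of 0.04 ± 0.06. The VHL groups did not overlap, with the mimic libraries slightly higher, whereas those of EPAS1 did. Neither gene passed the test (unadjusted p = 0.652 for EPAS1 and 0.556 for VHL, adjusted p = 0.999, edgeR).

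In 22Rv1 the estimates were wider. EGLN3 had the highest log2 fold change, 1.31 ± 0.86 (unadjusted p = 0.169, adjusted p = 0.999, edgeR), with 3.74, 5.11 and 2.85 CPM with NC-mimic against 2.20, 3.35 and 24.0 CPM with the mimic. EGLN1 followed with 0.94 ± 0.54 (unadjusted p = 0.122), from 94.2, 107.3 and 95.3 CPM with NC-mimic and 78.9, 110.6 and 388.0 CPM with the mimic. In EGLN3 the third mimic library alone was above all NC-mimic libraries. In EGLN1 the second was slightly above them too, and the third was far above. Without it the log2 fold change of EGLN3 was -0.49 ± 0.43 and that of EGLN1 was -0.06 ± 0.16, so both signs turned. With the replicate block they were 0.49 ± 0.80 and 0.58 ± 0.42.

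With all libraries kept, the other 22Rv1 genes moved less. HIF1AN (0.22 ± 0.13), EGLN2 (0.22 ± 0.13), ARNT2 (0.15 ± 0.37), VHL (0.09 ± 0.13) and ARNT (0.08 ± 0.12) had positive estimates, and HIF1A (-0.04 ± 0.32), HIF3A (-0.13 ± 1.10) and EPAS1 (-0.21 ± 0.64) had negative ones, none past a threshold. Leaving out single libraries turned the signs of HIF1A (range -0.26 to 0.23), HIF3A (-1.35 to 0.43), EPAS1 (-0.94 to 0.52) and ARNT2 (-0.23 to 0.52). EGLN2 was above every NC-mimic library in each mimic library, with 58.1, 54.5 and 63.2 CPM against at most 53.4 CPM. EPAS1 was read in opposite directions by the 2 units, since RSEM's TPM was 2.44 ± 2.24 with NC-mimic and 3.85 ± 2.31 with the mimic (SD, n = 3), while CPM was 5.60 ± 3.90 and 4.86 ± 3.42. The mean transcript length that RSEM assigned to it was 3533 bases with NC-mimic and 1870 bases with the mimic. The single libraries were at 3389, 4483 and 2729 bases with NC-mimic and at 1989, 1570 and 2051 with the mimic. They did not overlap, and this difference was not tested. The only test of length compared the lines. Over the 9 genes with counts in every library, that length did not differ between the lines at an adjusted p under 0.05 (exact two-sided permutation test, 6 against 6 libraries), and VHL came closest, with 2831 ± 134.3 bases in 22Rv1 and 3086 ± 70.7 in LNCaP (exact p = 0.00649, adjusted over 9 genes 0.0584).

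Averaged over both lines, 0 of 10 genes were called at an adjusted p under 0.05, with 0% of 18720 genes called. HIF1AN had the smallest unadjusted p, 0.0482 (log2 fold change 0.16 ± 0.07, adjusted p = 0.999, edgeR). For the difference of the mimic effect between the lines, 0 of 10 genes and 0% of all genes were called, and the pathway gene with the smallest p was ARNT at 0.26 ± 0.12 (unadjusted p = 0.0515).

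Seen library by library, 1 or both of the replicate 3 libraries of 22Rv1 stood apart from the rest of the line in several pathway genes. HIF1A was at 99.6 CPM with NC-mimic and 80.8 CPM with the mimic in replicate 3, against 151.3 to 173.5 CPM in the other 4 libraries of the line. EPAS1 was at 10.0 and 8.81 CPM in replicate 3 against 2.69 to 4.07 CPM in the other 4. ARNT2 was at 27.3 and 31.0 CPM against 13.9 to 16.8 CPM. In these 3 genes both replicate 3 libraries lay on the same side, whichever mimic the cells had received. EGLN1 and EGLN3 differed from that, since NC-mimic replicate 3 (95.3 and 2.85 CPM) was not raised and only mimic replicate 3 was. In that library EGLN1 lay 1.97 and EGLN3 2.63 above the NC-mimic mean of the line on the log2 scale, HIF1AN 0.41, EGLN2 0.34 and VHL 0.25 above it, and HIF1A 0.77 below it (log2 deviation -0.77). HIF1A made up 86.0% and 82.4% of the summed TPM of HIF1A, EPAS1 and HIF3A in the replicate 3 libraries and 94.8% to 97.5% in the other 4 of the line. In the 6 LNCaP libraries this share was 92.8% to 95.9%, and the lines did not differ in it by the test (difference of -2.11 percentage points, exact two-sided permutation p = 0.461).

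The HIF target genes of other roles were read in the same libraries from a list of 30 genes, such as VEGFA, which encodes the growth factor of blood vessels, and genes of glycolysis. Of these, 27 had enough counts. In 22Rv1 mimic replicate 3, 26 of the 27 were more than 1 above the NC-mimic mean on the log2 scale, with a mean deviation of 2.56, where 12.5% of all genes were above 1 in that library. The exception was TFRC, the transferrin receptor, at 334.9 CPM against an NC-mimic mean of 440.3 CPM. VEGFA was at 152.3, 195.1 and 342.7 CPM with NC-mimic and at 125.3, 211.2 and 2551 CPM with the mimic. The genes with the largest deviations, named after their values were seen, were ADM, which encodes adrenomedullin, at 3.23, 4.33 and 17.7 CPM with NC-mimic and 2.13, 3.62 and 131.6 CPM with the mimic, and PFKFB3, a regulator of glycolysis, at 51.0, 79.0 and 63.5 CPM with NC-mimic and 36.4, 89.8 and 1197 CPM with the mimic. In mimic replicate 1 the mean deviation of the list was -0.77, with 6 genes more than 1 below, and in mimic replicate 2 it was 0.13. The 3 LNCaP libraries with the mimic had mean deviations between -0.14 and 0.18. The share of mitochondrially encoded transcripts was low in the same 22Rv1 library, at 2.23%, and its part in these values was not tested.

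**Figure D3:**
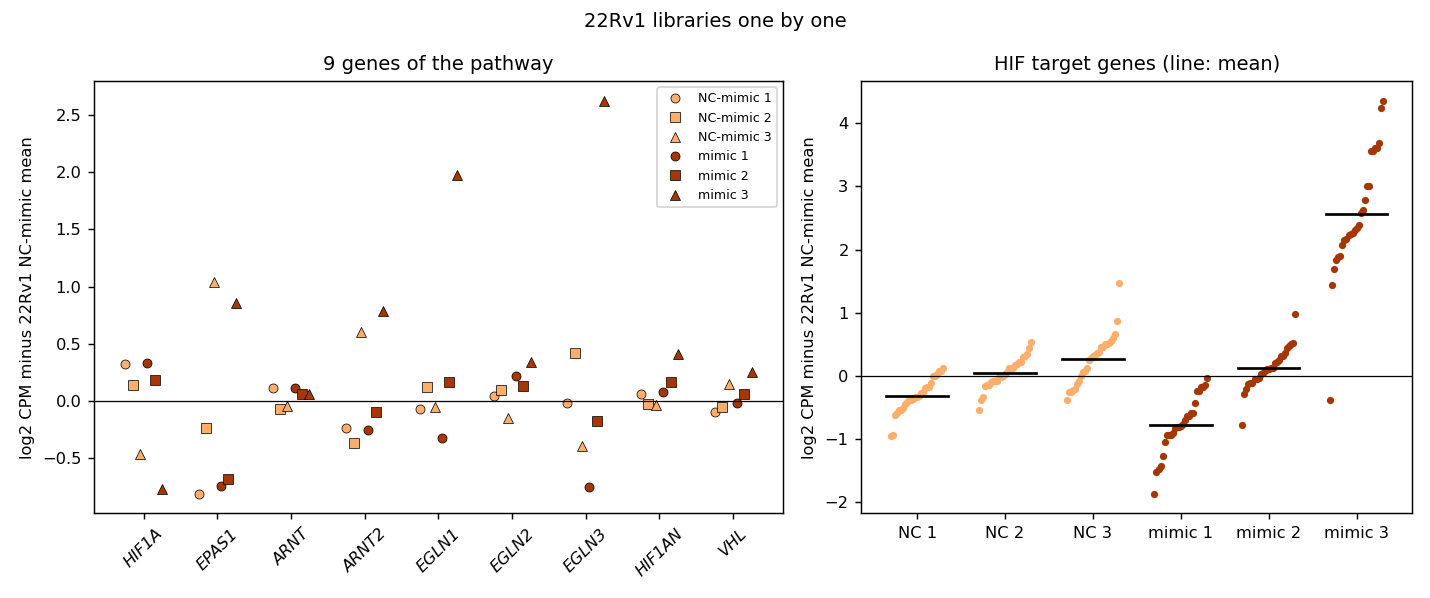
Deviation of each 22Rv1 library in log2 CPM, with the NC-mimic mean at 0 (vertical axes), for 9 pathway genes (left, one symbol per library) and for 27 HIF target genes (right, one point per gene and a line at the mean). In mimic replicate 3, EGLN1 (1.97) and EGLN3 (2.63) stood above all other points of the left panel, and 26 of the 27 target genes lay above 1.

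In the 22Rv1 fit of mimic against NC-mimic, 26 of the 27 target genes had a positive log2 fold change, with a median of 1.13 against -0.01 for all genes, and 0 passed the adjusted test. Without mimic replicate 3, 5 of 27 were positive and the median was -0.22. PFKFB3 alone of the list met the rule of the study in 22Rv1 (log2 fold change 2.75 ± 1.16, unadjusted p = 0.0483), where 1.48% of all genes met it, and without mimic replicate 3 none of the 27 did. In LNCaP, 18 of 26 were positive with a median of 0.05, and MXI1, a repressor of MYC function, CXCR4, a chemokine receptor, and PDK1, a kinase that restrains pyruvate dehydrogenase, met the rule, as did 2.22% of all genes. Their log2 fold changes were -0.23 ± 0.08, -0.84 ± 0.37 and 0.22 ± 0.10, each with an adjusted p of 0.999 by edgeR.

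The other genes of the pathway were taken in 3 further lists. None of their genes had an adjusted p under 0.05 for the mimic in either line (0 of 9 for the VHL ligase, 0 of 20 and 0 of 19 for HIF cofactors and modifiers, and 0 of 8 for other genes of the bHLH-PAS family to which HIF belongs). With all libraries, SIM2, a bHLH-PAS repressor, was the 1 gene of these lists that met the rule of the study, in 22Rv1 (log2 fold change 0.43 ± 0.17, unadjusted p = 0.0343, adjusted p = 0.999, edgeR). Without 22Rv1 mimic replicate 3, 1 of 19 cofactors and modifiers met it as lower and 1 of 8 bHLH-PAS genes as higher. Among all 17405 genes of that fit, 153 met it as higher and 223 as lower.

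Between the lines, in the NC-mimic libraries, the 9 further subunits and enzymes of the VHL ligase had 0 genes called, against 58.4% of all genes. UBE2D2, a ubiquitin-conjugating enzyme, had the smallest p (log2 fold change -0.38 ± 0.15, adjusted p = 0.0595, edgeR). Without 22Rv1 NC-mimic replicate 3, 3 of the 9 were lower, against 66.2% of all genes called. Of 19 HIF cofactors and modifiers, 6 were higher and 8 lower in 22Rv1 with all libraries, and 7 and 10 of 20 without 22Rv1 NC-mimic replicate 3. KDM6A, an oxygen-dependent histone demethylase, was lower (log2 fold change -3.65 ± 0.16, adjusted p = 1.25e-06), CITED2, which competes with HIF for the coactivator p300, was higher (2.23 ± 0.13, adjusted p = 4.66e-06), and HSP90AA1, a chaperone of the alpha subunits, was lower (-0.86 ± 0.09, adjusted p = 0.000118). Of 8 other bHLH-PAS genes, 4 were higher and 1 lower, with AHR, the dioxin receptor (0.99 ± 0.27, adjusted p = 0.0133), and its repressor AHRR (1.34 ± 0.34, adjusted p = 0.00910) higher and the circadian gene CLOCK lower (-0.41 ± 0.10, adjusted p = 0.00924).

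Of the 27 HIF target genes, 12 were higher and 4 lower in 22Rv1 with NC-mimic, where 30.9% of all genes were higher and 27.5% lower. The share called in both directions together was near that of all genes, but the list leaned more to higher. Their median log2 fold change was 0.51 against 0.01 for all genes. Without 22Rv1 NC-mimic replicate 3, 11 were higher and 8 lower with a median of 0.35, where 66.2% of all genes were called. HK2, a hexokinase (1.81 ± 0.12, adjusted p = 1.21e-05, edgeR), and ERO1A, an oxidase of the endoplasmic reticulum (1.59 ± 0.17, adjusted p = 0.000118), were higher and INSIG2, a regulator of sterol synthesis, was lower (-1.87 ± 0.15, adjusted p = 2.63e-05). In the mimic libraries, 8 were higher and 0 lower with a median of 1.73, where 52.4% of all genes were called, and without 22Rv1 mimic replicate 3 these were 10 and 7 with a median of 0.04, where 69.5% were called. The direction of this list between the lines with the mimic thus rested on 1 library.

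The genes whose log2 CPM followed a pathway gene most closely over the 12 libraries were found by Pearson's r among 18720 genes. For HIF1A they were USF3 (r = 0.975), YIPF6 (r = 0.972) and NBN (r = 0.971), for EPAS1 they were STUM (r = 0.982), FOXD3-AS1 (r = 0.964) and CTIF (r = 0.963), and for EGLN3 they were RIPK4 (r = 0.988), TNFSF13 (r = 0.987) and GOLGA2P7 (r = 0.987). The 12 points share 2 cell lines and the same libraries, so that these are descriptions with no test.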

How the data were processed

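Cells of both lines were transfected, kept in 10% CS-FBS and sequenced as mRNA. The authors aligned reads to hg38 with STAR 2.7.1a and made the deposited expected counts and TPM with RSEM 1.3.0, which divides reads between matching genes. TPM has the same sum in every library. Strand and trimming are not given in the sources used here. Expected counts were rounded, and edgeR 4.0.16 in R 4.3.3 tested them (TMM, filterByExpr, quasi-likelihood test, Benjamini-Hochberg adjustment over all genes of a fit), each comparison on its own 6 libraries, or on all 12 for both lines and for the difference between them. Single CPM values used TMM library sizes, and log2 CPM a prior count of 2. The SE of an edgeR log2 fold change was derived from its test, as the absolute log2 fold change over the square root of the F statistic. Shares of TPM and lengths were tested with exact permutation tests (scipy 1.17.1). Alternatives were DESeq2 1.42.0, limma 3.58.1 on log2(TPM + 1), other filters and size factors, a replicate block and leaving out libraries. The steps were checked on simulated data.

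The genes, lists and tests were chosen with earlier results of these data known. Named genes were the 10 pathway genes, at most 3 genes of smallest p per list and comparison, and the 3 genes of highest correlation for HIF1A, EPAS1 and EGLN3. VEGFA, ADM and TFRC were outside this rule and were named after their values were seen. Deviations of NC-mimic and mimic libraries with the same replicate number had correlations across genes of 0.252, 0.197 and 0.394 in 22Rv1. In LNCaP these were 0.0631, 0.00573 and 0.241. The library of the same number was the best match for replicates 1 and 3 of 22Rv1 and replicate 3 of LNCaP only. The main fits did not take libraries as pairs, and the replicate block was an alternative. Intervals cover counting error only. Gene positions are those of GENCODE v44 on hg38, matched by Ensembl gene number, where the version differed for ARNT2 and VHL. Some marker genes are not reported here.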

Additional observations from a re-analysis of the deposited data

Results flagged for a closer look

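ARNT, the common partner of the HIF alpha subunits, had estimates of the mimic effect with opposite signs in the 2 lines, neither past the adjusted test. All 3 LNCaP libraries with piR-4447944 mimic lay below the NC-mimic mean of the line (log2 deviations -0.23, -0.18 and -0.12), and all 3 of 22Rv1 lay above theirs (0.12, 0.07 and 0.06). The difference of the effect, 22Rv1 minus LNCaP, was 0.26 (0.255 before rounding) ± 0.12 on the log2 scale. By edgeR its p was 0.0515 before and 1.00 after adjustment, so the difference did not pass the test. The NC-mimic libraries of 22Rv1 spread from -0.07 to 0.11 around their own mean, and the 3 mimic libraries lay within or next to that range. Each group had 3 libraries, too few for a test of single outlying libraries.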

How the results depend on the processing

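Between the lines, the 5 pathway genes called in the mimic libraries became between 2 and 8 when 1 library was left out, with 2 without LNCaP mimic replicate 1 or replicate 3, and 8 without 22Rv1 mimic replicate 3 and also without the replicate 3 libraries of both lines. For the mimic, the number of all genes with an adjusted p under 0.05 in LNCaP was 46 with no low-count filter, 2 with DESeq2, 1 with limma and 5 without the replicate 3 libraries, and 0 to 2 when single libraries were left out. In 22Rv1 it was 4 with DESeq2, 2 with limma and 4 without the replicate 3 libraries. For the difference between the lines it was 3 with DESeq2, 2 with limma and 1 without the replicate 3 libraries, and 0 to 1 when single libraries were left out. By the rule of the study, the 361 genes of LNCaP became 891 with no filter, 2 with DESeq2, 578 with limma, 168 with all 12 libraries in one fit and 929 without the replicate 3 libraries, and 284 to 1008 when single libraries were left out, the most without NC-mimic replicate 3. The 250 genes of 22Rv1 became 532 with no filter, 459 with limma, 1232 with all 12 libraries and 781 without the replicate 3 libraries, and 183 to 376 when single libraries were left out, the most without mimic replicate 3. The pathway genes meeting the rule numbered 1 in 22Rv1 with no filter and with all 12 libraries (EGLN1 both times), and 0 to 1 in either line when single libraries were left out (EGLN1 without 22Rv1 mimic replicate 1). The cause of these shifts was not tested.

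With a block for the replicate number, 420 genes met the rule in 22Rv1, and no pathway gene gained or lost an adjusted call in any comparison. With the block and without 22Rv1 mimic replicate 3, an alternative chosen after seeing the data, 31 genes had an adjusted p under 0.05 and 1091 met the rule, and the log2 fold changes were 0.037 for HIF1A, -0.68 for EGLN3 and -0.097 for EGLN1, whose signs turned. The labels give no pairing beyond the shared number in any comparison.

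Signs turned in the following cases, none of which had an adjusted p under 0.05 both before and after. Log2 fold changes by limma on log2(TPM + 1) were 0.052 for EGLN1 and -0.32 for HIF1AN in LNCaP, 0.044 for HIF1A and 0.58 for EPAS1 in 22Rv1, -0.13 for HIF1AN over both lines and 0.16 for EPAS1 between the lines with the mimic. Without the replicate 3 libraries they were -0.041 for ARNT2 in LNCaP, 0.035 for HIF1A, -0.66 for EGLN3 and -0.079 for EGLN1 in 22Rv1, -0.29 for EGLN3 and -0.054 for EGLN1 over both lines, -0.50 for EGLN3 and -0.052 for EGLN1 in the difference between the lines, and for HIF1A 0.0042 between the lines with NC-mimic and 0.24 with the mimic. With single libraries left out, the LNCaP ranges were -0.27 to 0.015 for EPAS1, -0.049 to 0.027 for EGLN1, -0.039 to 0.13 for ARNT2 and -0.064 to 0.16 for EGLN2. Those of 22Rv1 were -0.26 to 0.23 for HIF1A, -0.94 to 0.52 for EPAS1, -1.35 to 0.43 for HIF3A, -0.49 to 1.78 for EGLN3, -0.059 to 1.31 for EGLN1 and -0.23 to 0.52 for ARNT2. Over both lines they were -0.24 to 0.69 for EGLN3 and -0.032 to 0.61 for EGLN1, and in the difference between the lines -0.37 to 1.91 for EGLN3 and -0.053 to 1.34 for EGLN1. For HIF1A between the lines they were -0.28 to 0.087 with NC-mimic and -0.24 to 0.23 with the mimic.

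For shares, in percentage points, the difference of the lines in HIF1A was 0.0701 and in EGLN2 -3.70 with expected counts in place of TPM. With the NC-mimic libraries alone and the mimic libraries alone it was 7.14 and 9.03 for ARNT, 24.3 and 28.3 for EGLN1 and -31.4 and -24.4 for EGLN3, each with the smallest exact p that 3 against 3 libraries can give (0.1), and -3.86 for EGLN2 with the mimic libraries. With single libraries left out, the difference of the lines in EGLN2 was -0.81 to 6.17. The mimic effect was then -0.46 to 1.07 for HIF1A in LNCaP, -5.55 to 2.53 for HIF1A in 22Rv1, -3.10 to 1.35 for ARNT in 22Rv1, -1.95 to 13.3 for EGLN1 in 22Rv1, -0.10 to 7.33 for EGLN2 in LNCaP, -14.4 to 3.06 for EGLN2 in 22Rv1 and -1.11 to 1.25 for EGLN3 in 22Rv1. The difference of the lines in transcript length, in bases, was -33.7 to 62.0 for HIF1A, -66.5 to 31.2 for EGLN2, -101.2 to 79.8 for EGLN3 and -419.6 to 423.3 for HIF1AN.

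Depth limited the genes with few counts, as HIF3A had at most 21 counts in a library, and in 22Rv1 EPAS1 had as few as 41 and EGLN3 as few as 32. With 3 libraries a group and a 22Rv1 library that stood apart, the intervals of EGLN1 and EGLN3 in 22Rv1 were wide, and a mimic effect on them could not be told apart from the spread of the replicates.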
